A study of Mus musculus with 2 samples.

Results

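Cells make cholesterol from acetyl-CoA through the mevalonate pathway, squalene and lanosterol, and they make fatty acids from the same precursor through malonyl-CoA. The genes of both routes are switched on by the membrane-bound SREBP transcription factors, which SCAP escorts to the Golgi for cleavage when sterols are scarce and which INSIG proteins hold back in the endoplasmic reticulum when sterols are plentiful. Activated B cells are known to need newly made lipid for membrane growth.

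The 36 genes described here come from a list that does not cover the whole pathway. Each carries a probe set of its own on the array. They are 5 regulators, 17 sterol genes and 14 genes of fatty acid synthesis, elongation, desaturation and activation. The sterol genes are 16 enzymes of cholesterol synthesis and the sterol carrier gene Stard4. The 36 were chosen by symbol from a list of 38 names for 37 genes, since Sc4mol is the older name of Msmo1. They hold 86 of the 45037 probe sets and 36 of the 18193 named genes. Acat2 was not analysed here. RNA was measured on 1 Affymetrix mouse array of B cells from AIRE transgenic NOD mice and 1 of B cells from non-transgenic NOD mice, each made from 2 mice 8 weeks old. NOD is an inbred strain that develops autoimmune diabetes, the transgene encodes human AIRE under an MHC class II promoter, and the cells of both groups had been selected as B220-positive and negative for Thy1 and CD11c. The pooling of mice and the lack of a further array leave no replicate, so no ratio carries a test or an error of its own, and each compares these 2 arrays only.

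The deposited intensities are linear and were used as given, because their mean without the 2% brightest and 2% dimmest probe sets was 500 on each array. The median intensity was 93.1 in transgenic and 104.3 in non-transgenic cells. A ratio is the log2 of transgenic over non-transgenic intensity, and any intensity below 25, the pooled 25th percentile, was raised to that floor first. A gene is represented by its probe set of highest mean level, and it counts as above the filter if the mean of its log2 values reached the pooled median intensity, 98.8. In all, 10140 genes lay above the filter, with a median log2 ratio of 0.02 and an SD of 0.50. The ratios of probe sets of the same gene scattered about that gene's mean ratio with a pooled SD of 0.44 on the log2 scale. This SD, called below the SD between probe sets, covers 4850 genes with several probe sets above the filter. It is the nearest these data come to a measuring error. It does not cover differences between mice or arrays that shift all probe sets of a gene alike. The B cell markers were present: 5 of 6 were measured, all above the filter, with summed intensities of 86282 in transgenic and 159990 in non-transgenic cells, and Ms4a1, which encodes the surface protein CD20, stood at 28071 in transgenic and 41029 in non-transgenic cells.

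The lipid synthesis genes differed little between the arrays. Of the 34 members above the filter, 1 was lower in transgenic cells by 2-fold or more and 0 were higher by as much. That is 2.94% of members lower, against 2.87% of all genes above the filter, and 0% higher, against 1.75% of all genes. The share of members past 2-fold was thus near the background. Of all genes past 2-fold, 37.8% were higher, and 62.7% with the array medians aligned, where 0 members were past 2-fold in either direction. At 1.5-fold, 4 members were lower (11.8%, against 10.8% of all genes) and 2 were higher (5.88%, against 8.75%). The median log2 ratio of the 34 was -0.13, and 21 of them lay below the median of all genes. The remaining genes, Me1 and Fads2, were on the array but under the filter. In bulk RNA, fewer cells of a type and less RNA per cell cannot be told apart, and this holds for every ratio below.

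**Figure D1:**
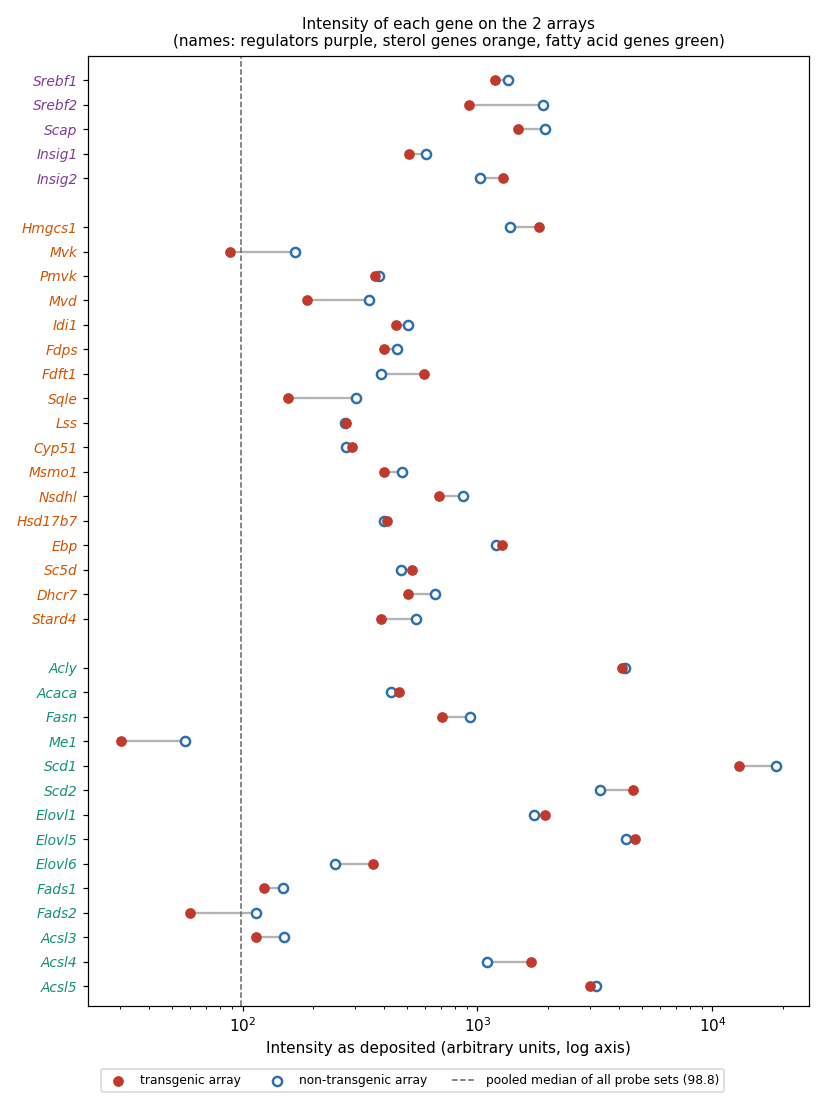
Intensity as deposited (log axis) of the 36 genes, by the probe set of highest mean level, on the transgenic array (filled red) and the non-transgenic array (open blue), with the regulators above, the sterol genes in the middle and the fatty acid genes below. The widest gap among genes to the right of the dashed filter line on both arrays is that of Srebf2, at 923 in transgenic and 1899 in non-transgenic cells, and every other gene lies within 2-fold.

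Among the regulators, Srebf2 was the member at least 2-fold apart. It encodes SREBP2, the transcription factor that acts mainly on genes of cholesterol synthesis and uptake. Its representing probe set, 1426744_at, stood at 923 in transgenic and 1899 in non-transgenic cells, a log2 ratio of -1.04. The other, 1452174_at, stood at 742 in transgenic and 1906 in non-transgenic cells, a log2 ratio of -1.36. Both probe sets thus read a lower level on the transgenic array, and the difference is more than 2 times the SD between probe sets of the same gene. That SD does not cover differences between mice. Of all genes above the filter, 2.67% had a ratio as low or lower, and of the 4129 genes within 1 log2 unit of its mean level, 1.70% did. With the medians of the arrays aligned its log2 ratio was -0.88, short of 2-fold, and under the other 7 settings tried it was past 2-fold. That count overstates stability. The other floors and the removal of shared probe sets could not change its value, which stayed at -1.04. The remaining probe set rules only brought in its lower probe set.

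The other regulators lay within the scatter. Srebf1, which encodes the SREBP1 factors that act mainly on fatty acid genes, stood at 1186 in transgenic and 1345 in non-transgenic cells, a log2 ratio of -0.18. Scap, the escort protein of the SREBPs, stood at 1488 in transgenic and 1944 in non-transgenic cells (-0.39), and its other probe set at 136 in transgenic and 141 in non-transgenic cells (-0.06). These ratios are smaller than the SD between probe sets of the same gene.

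Insig1, an inhibitor of SREBP transport that is itself a classical SREBP target, stood at 509.9 in transgenic and 601 in non-transgenic cells, a log2 ratio of -0.24. Insig2, its paralog, was the regulator with a ratio above 0. Its probe sets stood at 1290.0 in transgenic and 1028 in non-transgenic cells (0.33), at 676 in transgenic and 547 in non-transgenic cells (0.31), and at 761 in transgenic and 682 in non-transgenic cells (0.16). All 3 probe sets of Insig2 were higher on the transgenic array, each by less than the SD between probe sets of the same gene. Of the 5 regulators, 4 lay below the median ratio of all genes, and their median was -0.24.

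The median of the sterol genes lay below that of all genes, with no member 2-fold apart. Their median log2 ratio was -0.17 over 17 genes, all of them above the filter, against 0.02 over all genes. With the array medians aligned it was -0.00330, against 0.19 over all genes. The ratios ran from -0.96 to 0.62 with an SD of 0.44 among genes, 11 lay below the median of all genes and 6 above it. Genes are not replicates, so this spread is no error of the median.

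The lowest ratios belonged to enzymes at 3 separate steps. Sqle, the squalene epoxidase that makes the first oxygenated intermediate and is a known control point of the pathway, stood at 157 in transgenic and 304.5 in non-transgenic cells by its only probe set, a log2 ratio of -0.96. Mvk, the mevalonate kinase, stood at 88.6 in transgenic and 167 in non-transgenic cells, a log2 ratio of -0.91, and its transgenic value is under the filter intensity. Its other probe set was under the filter, at 23.3 in transgenic and 36.2 in non-transgenic cells.

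Mvd, the decarboxylase that makes isopentenyl diphosphate, gave readings that disagree. Its representing probe set stood at 189 in transgenic and 344 in non-transgenic cells, a log2 ratio of -0.87, while its other probe set, whose name marks sequence shared between transcripts, stood at 155 in transgenic and 141 in non-transgenic cells (0.13). Within 1 log2 unit of the gene's own mean level, 5.38% of genes were as low as Sqle or lower, 8.87% as low as Mvk and 6.67% as low as Mvd.

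The 6 members from Hmgcs1 to Fdps are Hmgcs1, Mvk, Pmvk, Mvd, Idi1 and Fdps. Of these, 5 had a ratio below 0 by their representing probe set, and Hmgcs1 had one above 0. Among all 10140 genes above the filter, 4842 had a ratio below 0. The sign of Pmvk turned under the 3 alternatives that rescale the arrays, and that of Idi1 where probe sets were averaged. Hmgcs1, the synthase that commits acetoacetyl-CoA to the pathway, had 4 probe sets above the filter. The representing one, 1433445_x_at, stood at 1819.7 in transgenic and 1371 in non-transgenic cells (0.41), and 1433443_a_at stood at 1403 in transgenic and 959.9 in non-transgenic cells (0.55). By contrast, 1433444_at stood at 1335 in transgenic and 1710.0 in non-transgenic cells (-0.36), and 1433446_at at 550.0 in transgenic and 612 in non-transgenic cells (-0.15). The direction of Hmgcs1 therefore depends on the probe set.

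Pmvk, the phosphomevalonate kinase, stood at 366 in transgenic and 379.6 in non-transgenic cells (-0.05). Idi1, the isomerase of isopentenyl diphosphate, stood at 451 in transgenic and 506 in non-transgenic cells (-0.17) by its representing probe set and at 414 in transgenic and 340.4 in non-transgenic cells (0.28) by the other. Fdps, which builds farnesyl diphosphate, stood at 401.5 in transgenic and 454 in non-transgenic cells (-0.18). None of these 3 genes differed by more than the scatter between probe sets.

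Fdft1, the squalene synthase that opens the sterol branch, had the highest ratio of the group, and its probe sets disagreed. Its representing probe set, 1438322_x_at, stood at 593 in transgenic and 387 in non-transgenic cells (0.62). Its other probe set above the filter, 1448130_at, stood at 389.6 in transgenic and 485 in non-transgenic cells (-0.32). These readings of the same gene lie 0.93 apart on the log2 scale, so the direction of Fdft1 depends on the probe set.

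Lss, Cyp51, Ebp and Sc5d had small ratios above 0 by their representing probe sets. Lss, the lanosterol synthase that closes the sterol rings, stood at 276 in transgenic and 272 in non-transgenic cells (0.02). Cyp51, the lanosterol demethylase, stood at 292 in transgenic and 275 in non-transgenic cells (0.09), Ebp, a sterol isomerase, at 1275 in transgenic and 1194 in non-transgenic cells (0.09), and Sc5d, a sterol desaturase, at 528 in transgenic and 475 in non-transgenic cells (0.15). All 3 probe sets of Sc5d above the filter had ratios above 0, between 0.09 and 0.34.

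Msmo1, the methyl sterol oxidase, stood at 401.5 in transgenic and 478 in non-transgenic cells (-0.25). Nsdhl, which acts with it in removing the methyl groups, stood at 687 in transgenic and 872 in non-transgenic cells (-0.34), and Dhcr7, the reductase of the last step, at 505 in transgenic and 659.5 in non-transgenic cells (-0.39). Each of these ratios is smaller than the SD between probe sets of the same gene. Hsd17b7, the ketoreductase of the same demethylation, stood at 412 in transgenic and 402 in non-transgenic cells (0.04) by a probe set named _x_at, and its other 2 probe sets above the filter stood at -0.64 and -0.37.

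Stard4, a carrier that moves sterol between membranes and is a known SREBP2 target, was lower by each of its 3 probe sets. The representing one stood at 389 in transgenic and 547 in non-transgenic cells (-0.49), and the others at 361.5 in transgenic and 519.9 in non-transgenic cells (-0.52) and at 241 in transgenic and 284 in non-transgenic cells (-0.24). Of all genes above the filter, 14.1% had a ratio as low as that of its representing probe set or lower.

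**Figure D2:**
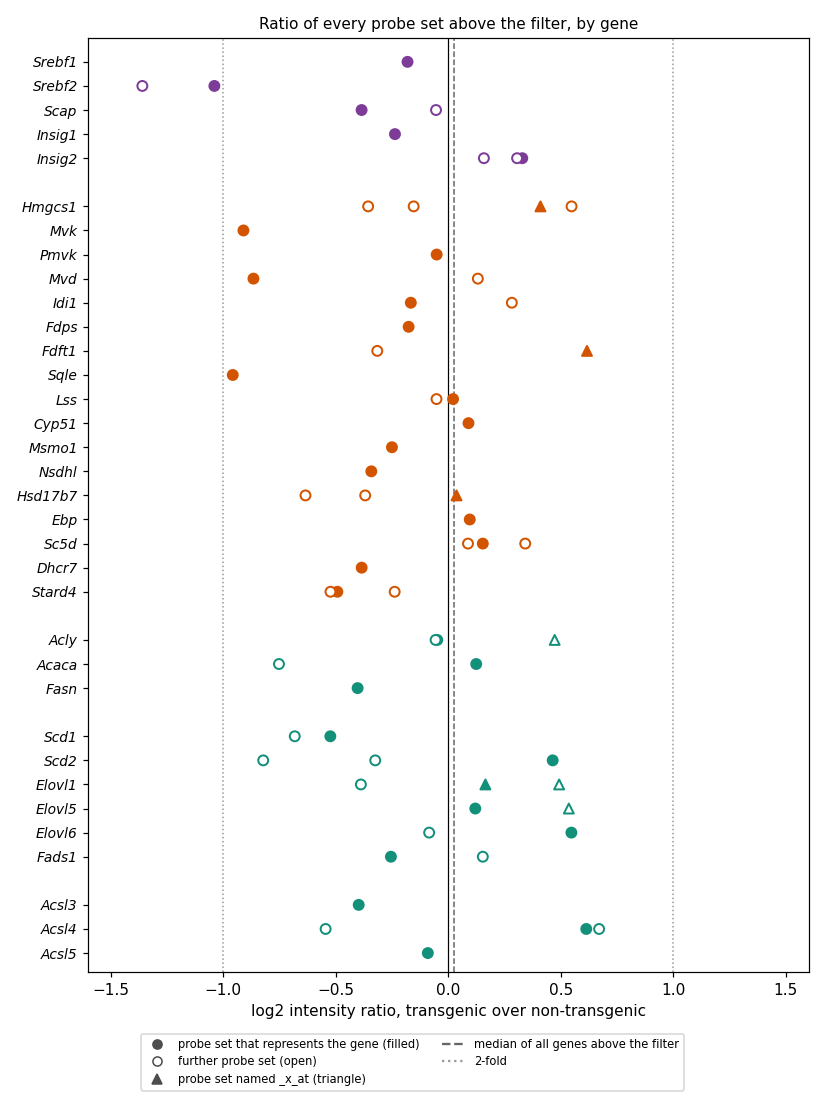
Log2 intensity ratio, transgenic over non-transgenic, of every probe set above the filter, by gene. Filled symbols represent the gene, open ones are its further probe sets, triangles are probe sets named _x_at, the dashed line is the median of all genes (0.02) and the dotted lines are 2-fold. Both probe sets of Srebf2 lie beyond the lower dotted line, at -1.36 and -1.04, and 13 of the 20 genes with several symbols have symbols on both sides of 0.

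Because the sterol genes share their known regulators, the promoters of the only member past 2-fold and of 3 mevalonate pathway genes are shown, from RefSeq on build GRCm38.p6. Each is the stretch just before a gene's annotated start, read on the gene's own strand from 5′ to 3′. Capitals mark CCAAT or its reverse complement ATTGG, the box bound by NF-Y, a factor known to act beside SREBP, and matches to part of the sterol response element, to which SREBP binds: ATCACCCCA in Srebf2 and TCACCCCAC in Hmgcs1.
Srebf2 (chr15:82147089-82147268, + strand): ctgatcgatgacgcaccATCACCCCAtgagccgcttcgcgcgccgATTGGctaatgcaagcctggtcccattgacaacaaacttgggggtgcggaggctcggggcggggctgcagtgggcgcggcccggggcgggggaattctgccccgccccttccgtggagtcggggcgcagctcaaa
Hmgcs1 (chr13:119690171-119690350, + strand): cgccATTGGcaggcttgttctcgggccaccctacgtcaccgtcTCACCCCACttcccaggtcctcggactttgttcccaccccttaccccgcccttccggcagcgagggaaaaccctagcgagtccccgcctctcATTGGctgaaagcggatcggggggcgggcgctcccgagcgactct
Mvk (chr5:114444089-114444263, + strand): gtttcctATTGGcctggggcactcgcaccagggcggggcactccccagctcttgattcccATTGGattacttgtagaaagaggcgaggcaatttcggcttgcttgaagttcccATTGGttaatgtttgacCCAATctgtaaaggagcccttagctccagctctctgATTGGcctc
Mvd (chr8:122443423-122443602, - strand): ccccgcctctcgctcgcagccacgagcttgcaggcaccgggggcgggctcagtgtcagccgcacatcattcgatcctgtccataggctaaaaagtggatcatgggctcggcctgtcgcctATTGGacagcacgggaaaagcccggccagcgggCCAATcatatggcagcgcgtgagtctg

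The stretch of Mvk holds 5 CCAAT boxes, those of Mvd and Hmgcs1 hold 2 each, and that of Srebf2 holds 1. Over the whole windows of 300 bases, from 250 before to 50 after a start, 29 members were in the RefSeq table. Fads1, Fdft1, Fdps, Scd1, Scd2, Sqle and Stard4 had no window there and were not searched. The 27025 genes of the table, used as background, were not limited to genes above the filter. CCAAT, searched on both strands, was in the windows of 24 of these 29 members, 82.8% of them, against 41.1% of the 27025 genes of the table, and in those of 13 of 13 sterol genes, 7 of 11 fatty acid genes and 4 of 5 regulators. The full sterol response element, ATCACCCCA with a C added, was found in 0 of the 29 members, against 0.0999% of all genes, and with any base at its sixth position likewise in 0, against 0.27%. The shorter strings TCACNCCAC and ATCACCCCA, which overlap with each other and with the full element, were added after the sequences had been seen: each was in 1 of the 29 members, against 1.44% and 0.318% of all genes. A match is a description of the letters only.

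The fatty acid genes had no shared direction. Of 14 on the array, 12 lay above the filter, with a median log2 ratio of 0.03, a range from -0.52 to 0.61 and an SD of 0.38 among genes. Above the median of all genes lay 6 of the 12, and below it the other 6.

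The enzymes that make palmitate differed little. Acly, the citrate lyase that supplies cytosolic acetyl-CoA, stood at 4115 in transgenic and 4259 in non-transgenic cells (-0.05). Its other probe sets above the filter stood at 4129 in transgenic and 2977 in non-transgenic cells (0.47) for 1439459_x_at and at 782 in transgenic and 813.5 in non-transgenic cells (-0.06) for 1425326_at. Acaca, the carboxylase that makes malonyl-CoA, stood at 465 in transgenic and 426.5 in non-transgenic cells (0.12), and its other probe set at 85.8 in transgenic and 145 in non-transgenic cells (-0.75). Fasn, the fatty acid synthase, stood at 705 in transgenic and 932 in non-transgenic cells (-0.40), which is under the SD between probe sets of the same gene. Me1, the malic enzyme that yields NADPH for this synthesis, was under the filter, at 30.4 in transgenic and 56.9 in non-transgenic cells.

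The desaturases that place the first double bond gave no common direction. Scd1 stood at 12937 in transgenic and 18614 in non-transgenic cells (-0.52) and, by its other probe set, at 1375 in transgenic and 2208 in non-transgenic cells (-0.68). Both probe sets of Scd1 were thus lower on the transgenic array. The 325 genes within 1 log2 unit of its level had a median log2 ratio of -0.04, and 11.7% of them were as low or lower.

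Scd2, the paralog of Scd1, stood at 4576 in transgenic and 3319 in non-transgenic cells (0.46) by its representing probe set. Its other probe sets stood at 797 in transgenic and 999 in non-transgenic cells (-0.33) and at 186 in transgenic and 329.6 in non-transgenic cells (-0.82). The 3 probe sets of Scd2 therefore span 1.29 on the log2 scale and give no common direction. Fads1, a desaturase of long polyunsaturated chains, stood at 124 in transgenic and 148 in non-transgenic cells (-0.26), and its other probe set at 106.5 in transgenic and 95.8 in non-transgenic cells (0.15). Fads2, its partner, was under the filter by all its probe sets, at 59.6 in transgenic and 114 in non-transgenic cells by the one of highest mean level and at 31.4 in transgenic and 174 in non-transgenic cells by the next.

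The elongases had ratios above 0 by their representing probe sets. Elovl1, which extends long saturated chains, stood at 1943 in transgenic and 1734 in non-transgenic cells (0.16), but its probe set 1425676_a_at stood at 933 in transgenic and 1222 in non-transgenic cells (-0.39). Elovl5, which extends polyunsaturated chains, stood at 4661 in transgenic and 4291 in non-transgenic cells (0.12) and at 4045 in transgenic and 2792 in non-transgenic cells (0.53) by its _x_at probe set. Elovl6, which extends palmitate, stood at 360.0 in transgenic and 246.5 in non-transgenic cells (0.55), with another probe set above the filter at 99.6 in transgenic and 106 in non-transgenic cells (-0.09). Of these, Elovl5 alone had all its probe sets above the filter on the same side of 0.

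The acyl-CoA synthetases, which activate free fatty acids, did not move together either. Acsl4, which prefers arachidonic acid, stood at 1682 in transgenic and 1100.2 in non-transgenic cells (0.61). Its other probe sets stood at 215 in transgenic and 135 in non-transgenic cells (0.67) and at 204 in transgenic and 298 in non-transgenic cells (-0.55). Acsl3 stood at 114 in transgenic and 149.9 in non-transgenic cells (-0.40), while its other probe sets, under the filter, stood at 80.1 in transgenic and 48.5 in non-transgenic cells (0.72) and at 43.5 in transgenic and 36.8 in non-transgenic cells (0.24). The sign of Acsl3 turned under the 3 other probe set rules tried. Acsl5 stood at 3005 in transgenic and 3202 in non-transgenic cells (-0.09). Of all genes above the filter, 7.83% had a ratio as high as that of Acsl4 or higher.

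**Figure D3:**
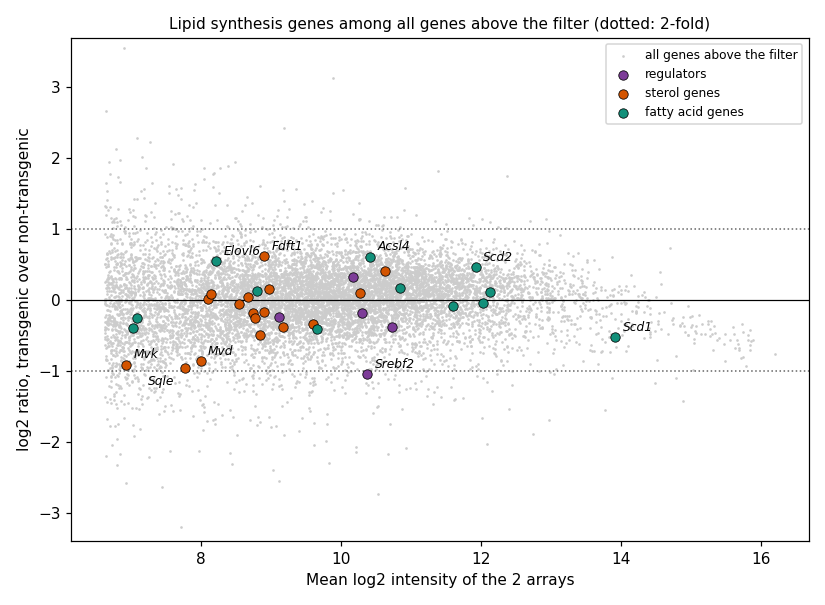
Log2 ratio, transgenic over non-transgenic, against the mean log2 intensity of the arrays, for all 10140 genes above the filter (grey) and for the regulators (purple), sterol genes (orange) and fatty acid genes (green) among them. The coloured points lie inside the grey cloud, with Sqle, Mvk and Mvd in the wider scatter of dim genes. Srebf2 lies low in the cloud at -1.04, where 2.67% of all genes above the filter are as low or lower.

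Set against each other, the sterol genes lay below the fatty acid genes by 0.20 on the log2 scale, with medians of -0.17 and 0.03. Among the 29 genes compared the ratios overlapped over most of their range, and no test is possible with 1 array per group. The difference kept its sign under all 14 alternatives, at -0.29 to -0.04, and all of these use the same arrays. Of these, 12 changed the processing and the rest only regrouped the genes. The value of -0.29 came from leaving out the acyl-CoA synthetases, and that of -0.04 from averaging the probe sets of each gene. Without a filter the difference was -0.10, since Me1 and Fads2 then enter, both lower on the transgenic array. The lower floor changed no member and so left the difference unchanged. From the SD between probe sets, a rough scatter of 0.21 follows for this difference, which is no larger than that. Aligning the array medians shifts every ratio alike, so it could not alter this difference, which stayed at -0.20. The sterol median also lay below the median of all genes under all 12 alternatives that recompute both, with differences of -0.32 to -0.05. For the fatty acid genes the same differences were -0.07 to 0.01, below 0 in 9 and above it in 3.

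**Figure D4:**
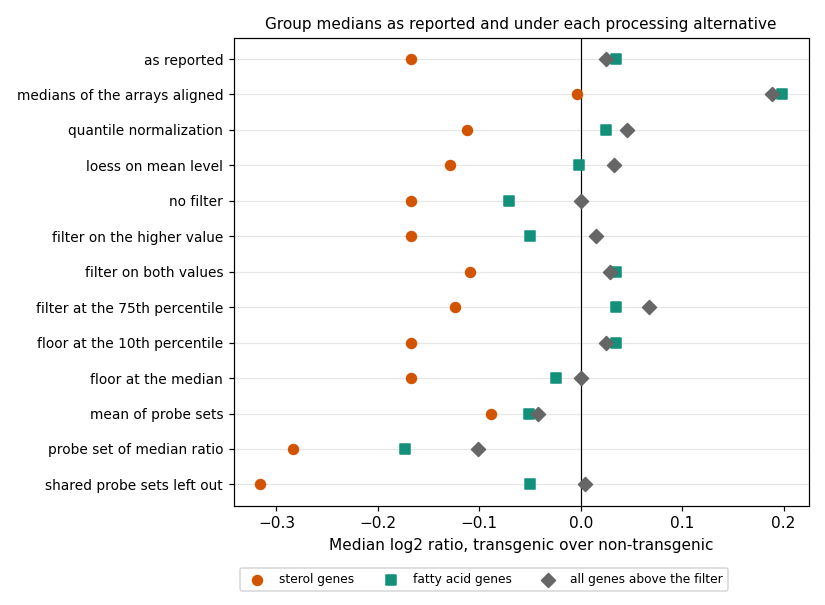
Median log2 ratio, transgenic over non-transgenic, of the sterol genes (circles), the fatty acid genes (squares) and all genes above the filter (diamonds), as reported and under each of 12 processing alternatives (rows). The circles lie left of the diamonds in every row, and aligning the array medians moves all 3 symbols to the right, to just under 0 for sterol genes, 0.20 for fatty acid genes and 0.19 for all genes.

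The agreement between probe sets sets the limit for single genes. Of the 20 members with several probe sets above the filter, 13 (65%) had ratios on both sides of 0, against 53.0% of the 4850 such genes on the array, and 7 had all of them on the same side. These 7 were Srebf2, Scap, Stard4 and Scd1, lower on the transgenic array, and Insig2, Sc5d and Elovl5, higher. Probe sets named _x_at, whose probes may cross-hybridise, moved with the result: in 6 of 6 members that have both kinds above the filter, the mean ratio of the _x_at probe sets was higher than that of the gene's others, by a median of 0.53. Over all 837 genes with both kinds it was higher in 69.1%, by a median of 0.21. Without probe sets marked as shared or cross-hybridising, the sterol median was -0.32 in place of -0.17.

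Further genes of lipid metabolism, from lists that are not part of the 36, had 0 members 2-fold apart above the filter, where 1.75% of all genes were higher and 2.87% lower by as much. Of 28 other genes of sterol and fatty acid synthesis, 26 were measured and 17 lay above the filter, with a median log2 ratio of 0.06. Among these, Lbr, a nuclear envelope protein with sterol reductase activity, stood at 8405 in transgenic and 7266 in non-transgenic cells (0.21). Under the filter, Tmem97, a gene known to be induced by SREBP, stood at 51.6 in transgenic and 104 in non-transgenic cells. Thrsp, a lipogenic gene of liver and fat, stood at 31.3 in transgenic and 86.0 in non-transgenic cells. Acsl6, another acyl-CoA synthetase, stood at 14.3, under the floor, in transgenic and 54.1 in non-transgenic cells. Another probe set of Thrsp went the other way, at 57.9 in transgenic and 46.0 in non-transgenic cells. So did another of Acsl6, at 36.5 in transgenic and 23.1 in non-transgenic cells. Of 11 genes of sterol efflux and storage, 9 were measured and 7 lay above the filter with a median of 0.06, and Npc2, which carries cholesterol out of lysosomes, stood at 7246 in transgenic and 5011 in non-transgenic cells (0.53). Of 12 genes of fatty acid oxidation, 11 were measured and 10 lay above the filter with a median of 0.12, and Acadl, a long-chain acyl-CoA dehydrogenase, stood at 4599 in transgenic and 5709 in non-transgenic cells (-0.31).

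Other measures differed between the arrays beside these genes. Proliferation markers, 7 of 8 measured, had a median of -0.19 with 1 at least 2-fold lower and 6 of 7 below the median of all genes, and their summed intensities were 14003 in transgenic and 15135 in non-transgenic cells. The 2-fold lower gene was Tk1, the thymidine kinase, at 334 in transgenic and 797 in non-transgenic cells, while Pcna, the sliding clamp of DNA replication, stood at 8476 in transgenic and 8478 in non-transgenic cells. B cell markers were lower in 5 of 5, with a median of -0.79, and Cd79a, part of the B cell receptor, stood at 18478 in transgenic and 49432 in non-transgenic cells (-1.42). T cell markers, 5 of 6 measured, had 4 above the filter, all 4 below the median of all genes, with a median of -0.44 and summed intensities of 912 in transgenic and 1169 in non-transgenic cells. Among them Thy1, whose protein was used to remove cells, stood at 95.4 in transgenic and 219.6 in non-transgenic cells (-1.20), and Cd3d at 329 in transgenic and 332.5 in non-transgenic cells (-0.02). Cd3e, under the filter, went the other way, at 72.4 in transgenic and 44 in non-transgenic cells (0.72). Natural killer cell markers, 5 of 6 measured, summed to 4491 in transgenic and 2747 in non-transgenic cells, with a median of 0.56. Of these 5, 4 had a ratio above 0, among them Gzma at 2611 in transgenic and 1446 in non-transgenic cells. Klre1, also higher, stood at 442.5 in transgenic and 203.1 in non-transgenic cells (1.12). Prf1 went the other way, at 244 in transgenic and 284 in non-transgenic cells (-0.22). Of 6 markers of adipocytes, a cell type rich in these enzymes, 4 were measured and 2 lay above the filter. The 4 summed to 286 in transgenic and 319.6 in non-transgenic cells. Fabp4, the brightest, stood at 155 in transgenic and 113 in non-transgenic cells (0.45), and Adipoq lay under the floor on both arrays. Of 4 hepatocyte markers, 0 lay above the filter. As a sign of RNA integrity, the beta-actin control probe sets had a ratio of 3′ over 5′ signal of 1.49 in transgenic and 1.25 in non-transgenic cells, those of Gapdh 0.775 in transgenic and 0.670 in non-transgenic cells, and those of the transferrin receptor 4.20 in transgenic and 4.59 in non-transgenic cells. The part of these differences in the ratios of the lipid synthesis genes was not tested.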

How the data were processed

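The deposited values are intensities on a linear scale, 1 per probe set and array; the authors' software, background step and genome build are not given in the sources used here. Equal trimmed means on both arrays show a scaling to a common target, so no further scaling was applied. Of 45037 probe sets besides 64 controls, 34945 have 1 gene symbol in the probe table, 932 have several and 9160 have none; only the first kind was named, 34741 of them checked through Entrez identifiers in a RefSeq table (GRCm38.p6, names only), which renamed 0. Floor, filter and choice of probe set are as in the report; the filter uses the mean of both arrays, which treats them alike. Every member was named, and of other pathway lists the genes 2-fold apart or that of highest level. Of the cell type lists shown that have genes above the filter, the gene of highest level was named. Tk1, Cd79a, Thy1, Cd3e, Klre1, Prf1 and Adipoq were picked after their values were seen. Plasma cell, myeloid, dendritic cell and erythroid lists were also summarised and are not shown. Members and lists were chosen with earlier results of these data known. Alternatives were aligned medians, quantile normalization, loess (span 0.3), other filters, floors, a 1.5-fold threshold and probe set rules. For the group medians, regulators were also counted with their pathway, or the acyl-CoA synthetases were left out. On simulated arrays of 18193 genes, 50 genes made 2-fold higher had a median log2 ratio of 1.03 and 50 made 2-fold lower -0.97. The altered genes were bright ones, and all probe sets of a gene were shifted alike. This checks the calculation only, since dim genes and disagreement between probe sets were not simulated. Precision is limited by the number of arrays. Tools were Python 3.11.15 with pandas 2.3.3, numpy 2.4.6, statsmodels 0.14.6 and matplotlib 3.10.9.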

Additional observations from a re-analysis of the deposited data

How the results depend on the processing

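Of the 36 genes, 22 kept the sign of their ratio under all 8 alternatives that recompute single genes, 15 of them lower and 7 higher on the transgenic array. The count overstates stability. The lower floor changed no member, and genes with only 1 probe set, such as Sqle, could not change under the probe set rules. Mvd, Fads1, Elovl6 and Acsl4 are among the 22 although their probe sets above the filter lie on both sides of 0. Srebf2 ranged from -1.36 to -0.88. With array medians aligned, the sterol median was -0.00330, the fatty acid median 0.20 and the median of all genes 0.19; members at least 2-fold lower numbered 0, and genes 2-fold higher and lower numbered 320 and 190 instead of 177 and 291 (62.7% higher instead of 37.8%). With the probe set of median ratio the fatty acid median was -0.17, the median of all genes -0.10 and 96 genes were 2-fold higher; with the mean of probe sets 111 were. Leaving out shared probe sets put the sterol median at -0.32. At 1.5-fold, 2 members were higher and 4 lower, of 887 and 1092 genes. Genes 2-fold higher and lower numbered 678 and 1244 without a filter, 292 and 514 with a filter on the higher value, and 58 and 110 where the filter was the 75th percentile; fewer or more genes enter by construction. For the other settings the cause was not tested. No paired analysis was possible because each group is 1 array. Dim genes such as Mvk, Me1 and Fads2 lie near the background signal, which limits their ratios.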
